A study of Mus musculus with 8 samples.

Results

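The genes described here are the Tcf/Lef transcription factors (Lef1, Tcf7, Tcf7l1 and Tcf7l2), β-catenin (Ctnnb1), and 4 components of the complex that degrades it (Axin1, Axin2, Apc and Gsk3b). They were chosen by gene symbol, and a gene was measured by every probe set that the platform annotation assigns to its symbol alone. By this rule 8 of the 9 genes were measured, out of 18193 genes in all, by 25 of 45037 tested probe sets, and Tcf7 was not analysed here. The probe set with the highest mean over all arrays stands for its gene unless another is named.

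RNA came from the mouse embryonic stem cell (ESC) line R1/E, harvested 48 h after the cells had received esiRNA, a mixture of short interfering RNAs prepared by enzymatic digestion. In the knock-down group (Rad21, 4 arrays) the esiRNA targeted Rad21, a core component of cohesin, the ring that holds DNA strands together, and in the control group (Luc, 4 arrays) it targeted luciferase, a gene these cells lack. Both groups are the same cell line, and both had 80000 cells per well transfected with 800 ng esiRNA using Lipofectamine2000. The labels call the 4 arrays of a group biological replicates, and their number limits how precise each value is.

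In cells without a Wnt signal, the scaffold proteins Axin and Apc hold β-catenin next to the kinases Gsk3 and casein kinase 1, whose phosphorylation marks it for ubiquitination and degradation. A Wnt ligand inactivates this complex, β-catenin enters the nucleus and binds Tcf/Lef factors, and genes that these factors had held repressed with Groucho/Tle co-repressors are then transcribed. In mouse ESCs the main repressor of the family is Tcf7l1 (also called Tcf3), which restrains pluripotency genes, while Lef1 and Axin2 are themselves induced by Wnt signalling in many tissues, Axin2 as negative feedback.

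Promoter sequence was inspected because Tcf/Lef factors bind CTTTGAT or CTTTGAA, and Lef1 was the member with the largest change. Neither motif, searched on both strands, occurred in the 13 RefSeq promoter windows found for 7 of the 9 genes (250 bases before to 50 after a transcript start, GRCm38.p6), whereas 8.65% of all 32851 such windows held one. The shorter core CTTTG, searched after that result was known and contained in both longer motifs, occurred in 8 of the 13 windows and in 53.9% of all windows. The stretch before the most upstream Lef1 start, chr3:131110047-131110296 on the plus strand, is shown because Lef1 carried the largest change, with its only core match in capitals.
Lef1: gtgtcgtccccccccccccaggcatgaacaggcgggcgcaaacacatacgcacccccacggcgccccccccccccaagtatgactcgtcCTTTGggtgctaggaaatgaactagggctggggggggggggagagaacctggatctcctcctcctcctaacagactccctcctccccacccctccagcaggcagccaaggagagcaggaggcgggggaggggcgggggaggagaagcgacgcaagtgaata
The match begins at position -161 relative to the transcript start. A match of these letters is a description of the sequence and not a binding site, and the absence of a match refers only to this window.

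The targeted transcript was lower in every knock-down array. The brightest Rad21 probe set measured 13.62, 13.42, 13.83 and 13.79 (log2, replicates 1 to 4) in the Luc control and 11.69, 11.75, 12.37 and 12.52 in the knock-down. The knock-down retained 33.4% of the Luc signal at this probe set (limma, adjusted p = 0.00222). Of the other Rad21 probe sets, 1455938_x_at retained 50.6% (adjusted p = 0.0114, and 0.0659 in replicates 3 and 4 alone) and 1416162_at 16.6% (adjusted p = 0.000164). Array medians lay between 3.08 and 3.16 on the log2 scale, and arrays of a group correlated with Pearson coefficients from 0.998 to 0.999 across probe sets. Replicates 1 and 2 stood apart from replicates 3 and 4 in both groups (on the second principal component, 11.6% of the variance), for which the labels name no batch, and changes within each set therefore accompany the pooled ones where they bear on a result. Embryonic stem cell markers were bright in both groups, with means from 11.3 to 15.9, and 5 of the 7 fell after the knock-down (12.6% of all genes were called down). The methods' analysis of variance called 4 of the 7, and limma called Utf1 in 4 of 8 fits that left out an array (adjusted p up to 0.0647). The summed linear signal of the 7 markers ranged from 183721 to 188342 in Luc arrays and from 149297 to 152367 in Rad21 arrays. Of 6 fibroblast markers, 1 (Thy1) fell, with a call in 4 of 8 fits that left out an array (adjusted p up to 0.0709) and 0 by the methods' analysis of variance, and 4 had both group means under 4, with sums of 79.2 to 117 in Luc and 94.9 to 116 in Rad21 arrays. All 4 primitive endoderm markers had both means under 4, with sums of 27.4 to 28.9 and 27.4 to 32.7, and 0 of them passed limma's test in the pooled fit, although 1 had an unadjusted p under 0.05 and the methods' analysis of variance called 0. In replicates 3 and 4 alone Sox7 passed (0.43, limma adjusted p = 0.0313), while it changed by -0.11 in replicates 1 and 2.

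After Rad21 knock-down Lef1 and Axin2 rose, Axin1 fell slightly, and the other 5 genes did not pass the test. Counted by probe set, 2 of 25 rose, 1 fell and 22 did not pass, while 14.9% of all probe sets were called at an adjusted p under 0.05 (6.47% up and 8.4% down). Counted by gene, 2 of 8 rose and 1 fell, against 22.6% of all genes called (10.1% up and 12.6% down). The 3 of 8 called genes therefore came from a comparison in which calls were frequent. The median change of the 8 genes was 0.27 on the log2 scale, beside 0.0033 over all genes, and the median size of change irrespective of sign was 0.27 beside 0.085. For 6 of the 8 genes the change was under 0.3 in either direction. All 8 had means above 4 in both groups, whereas many of the other genes are dim. The shares and medians over all genes are therefore not matched for brightness, and no excess is read from them. The groups did not overlap at 4 of the 25 probe sets (1 each of Lef1, Tcf7l1, Axin1 and Axin2), and this was so for 19.4% of all probe sets. In whole-culture RNA a lower level per cell and a smaller share of cells that express the gene cannot be told apart.

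**Figure D1:**
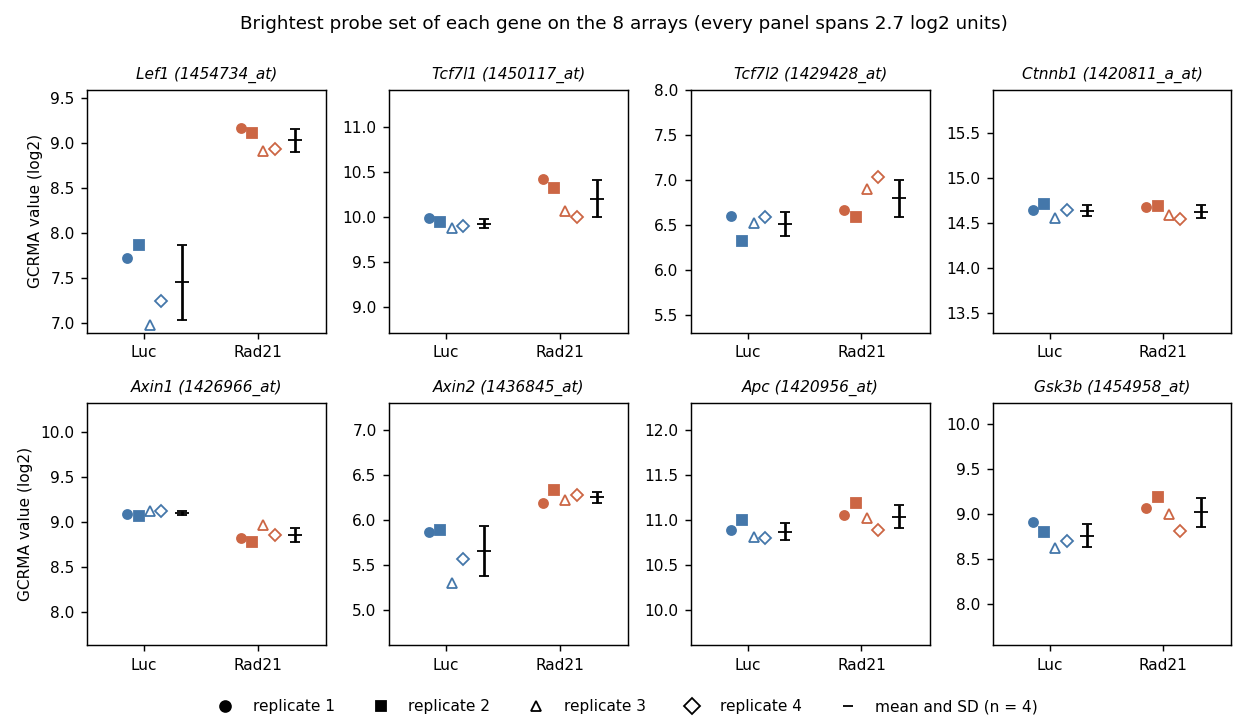
GCRMA values (log2) of the brightest probe set of each of the 8 measured genes on each array, with the symbol giving the replicate and bars giving the mean and SD (n = 4); all panels have an axis of equal length. Lef1 and Axin2 lie higher in all 4 knock-down arrays than in any Luc array, Axin1 lies lower in all 4, and Ctnnb1 sits near 14.6 in both groups.

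Lef1 encodes the Tcf/Lef factor most often associated with activation of Wnt target genes. Its probe set 1454734_at measured 7.73, 7.88, 6.98 and 7.25 in Luc replicates 1 to 4 and 9.17, 9.11, 8.92 and 8.94 in the knock-down replicates. The 4 knock-down arrays lay close together and above every Luc array, and the lowest Luc values were those of replicates 3 and 4. The mean went from 7.46 ± 0.42 to 9.04 ± 0.13 (log2, mean ± SD, n = 4). The log2 difference was 1.58 ± 0.20 (SE, 95% interval 1.12 to 2.04), or 2.98-fold (limma adjusted p = 0.00166). Replicates 1 and 2 gave 1.34 and replicates 3 and 4 gave 1.82, and this gap missed the threshold (interaction adjusted p = 0.233). The rise was called whichever array was left out, with adjusted p up to 0.00712. The mean of both Lef1 probe sets, 1 of them dim, changed by 1.0 (adjusted p = 0.00174).

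The second Lef1 probe set, 1421299_a_at, lay near the low plateau that GCRMA gives to dim probe sets. It measured 2.57 to 2.71 in Luc arrays and 3.11, 3.54, 2.69 and 2.88 in the knock-down, with overlap between the groups. Its change of 0.42 ± 0.17 (SE) did not pass (adjusted p = 0.171), and where both means are under 4 the size of a change is not settled by these values.

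Tcf7l1, the main Tcf/Lef repressor of ESCs, had a small positive difference that missed the threshold in the pooled fit. It measured 9.99, 9.95, 9.87 and 9.89 in Luc arrays and 10.43, 10.32, 10.06 and 9.99 in knock-down arrays at 1450117_at. The groups touched without overlapping at this probe set, and the excess was concentrated in replicates 1 and 2, where the change was 0.40, beside 0.14 in replicates 3 and 4. The pooled change was 0.27 ± 0.10 (SE, 95% interval 0.05 to 0.50, adjusted p = 0.121), and the difference between the replicate sets did not pass (interaction adjusted p = 0.185). It passed with the replicate sets as a term in the fit (adjusted p = 0.0208), in replicates 1 and 2 alone (adjusted p = 0.0201) and without Rad21 replicate 4 (0.34, adjusted p = 0.0496). Probe set 1436207_at gave 0.22 ± 0.12 (adjusted p = 0.342).

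Tcf7l2, also called Tcf4, can act as activator or repressor. Its brightest probe set measured 6.61, 6.32, 6.53 and 6.60 in the Luc control and 6.67, 6.59, 6.90 and 7.04 after knock-down, so the groups overlapped. The change was 0.29 ± 0.11 (SE, 95% interval 0.03 to 0.55, adjusted p = 0.159). The other 3 probe sets changed by -0.04 to 0.07, and a pair of them had both means under 4. Of that pair, 1425229_a_at passed under quantile normalization (-0.099, limma adjusted p = 0.0328).

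The changes of the Tcf/Lef factors were compared directly by exact permutation of the within-array difference between genes, a two-sided test over 70 regroupings whose smallest possible p is 0.0286. Lef1 rose by 1.30 more than Tcf7l1 and by 1.29 more than Tcf7l2 on the log2 scale, each at that smallest p (exact permutation p = 0.0286, adjusted p = 0.0381 over the 4 pairs of genes compared). With all probe sets of each gene averaged, dim ones included, these differences were 0.75 and 0.92, at the same p. Between Tcf7l1 and Tcf7l2 the difference of the changes was -0.01 (exact permutation p = 0.971). The levels themselves are not compared between genes, since probe sets differ in brightness for the same amount of RNA.

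β-catenin itself, the transcriptional co-activator that also links cadherins to the cytoskeleton, showed little difference between groups. Probe set 1420811_a_at of Ctnnb1 measured 14.65, 14.71, 14.56 and 14.64 in Luc arrays and 14.68, 14.69, 14.60 and 14.54 in knock-down arrays. The ranges overlapped almost entirely, and the change was -0.01 ± 0.04 (SE, 95% interval -0.12 to 0.09, adjusted p = 0.953). A change of the transcript anywhere inside this interval is compatible with these values, and the arrays do not measure protein. The other 2 probe sets changed by -0.05 (adjusted p = 0.865) and -0.18 (adjusted p = 0.514), and 0 of the 3 had an unadjusted p under 0.05.

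Axin1 is the constitutive scaffold of the destruction complex. It measured 9.09, 9.07, 9.12 and 9.12 in Luc replicates and 8.82, 8.78, 8.97 and 8.86 in knock-down replicates. Every knock-down array lay below every Luc array, and the Luc arrays spread over a narrow range. The mean fell from 9.10 ± 0.03 to 8.86 ± 0.08 (log2, mean ± SD, n = 4). The log2 difference was -0.24 ± 0.04 (SE, 95% interval -0.34 to -0.15), which is 84.5% of the Luc level (limma adjusted p = 0.00654). The call held without any single array (adjusted p up to 0.0233). Replicates 1 and 2 gave -0.28 and replicates 3 and 4 gave -0.21, where the 2 arrays per group alone gave an adjusted p of 0.107. The dim second probe set, 1426967_at, gave -0.03 (adjusted p = 0.587) and passed under quantile normalization (-0.11, adjusted p = 0.0184).

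Axin2, the Wnt-induced homologue of Axin1, moved the other way. It measured 5.87, 5.89, 5.30 and 5.57 in Luc arrays and 6.18, 6.33, 6.22 and 6.27 in knock-down arrays. The groups did not overlap, and as for Lef1 the knock-down arrays were close together while Luc replicates 3 and 4 were the lowest. The mean rose from 5.66 ± 0.28 to 6.25 ± 0.06 (log2, mean ± SD, n = 4). The log2 difference was 0.60 ± 0.13 (SE, 95% interval 0.29 to 0.90), or 1.51-fold (limma adjusted p = 0.0196). Replicates 1 and 2 gave 0.38 and replicates 3 and 4 gave 0.81 (interaction adjusted p = 0.267). The call depended on single arrays. It was lost without Luc replicate 4 (0.57, adjusted p = 0.0583), without Rad21 replicate 2 (0.57, adjusted p = 0.0578) and without Rad21 replicate 4 (0.59, adjusted p = 0.0518), and the methods' analysis of variance gave an adjusted p of 0.0514. The dim second probe set, 1421341_at, changed by -0.03 (adjusted p = 0.653). Between the scaffold paralogs the change of Axin1 was lower than that of Axin2 by 0.84 on the log2 scale (difference -0.84, exact permutation p = 0.0286, the smallest possible, adjusted p = 0.0381), or by 0.42 with all probe sets averaged (difference -0.42, at the same p). So averaged, Axin1 changed by -0.13 and Axin2 by 0.29, both called.

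Apc, the large tumour suppressor scaffold, did not pass the test at any of its 4 probe sets, and 0 had an unadjusted p under 0.05. The brightest measured 10.89, 11.00, 10.81 and 10.80 in Luc arrays and 11.06, 11.19, 11.03 and 10.89 in knock-down arrays, with overlap between the groups. Its change was 0.17 ± 0.07 (SE, 95% interval -0.00017 to 0.33, adjusted p = 0.210). The other probe sets gave -0.20 (1435543_at), 0.05 (1450056_at) and -0.05 (1420957_at, dim), so the 4 split evenly in sign in the pooled fit.

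Gsk3b, the kinase that phosphorylates β-catenin within the complex, was measured by 6 probe sets, of which 5 had a positive change and 1 a negative one, though that of 1439931_at was only 0.00027 and was negative under quantile normalization. The brightest measured 8.92, 8.80, 8.62 and 8.71 in Luc arrays and 9.07, 9.19, 9.0 and 8.82 in knock-down arrays. Only knock-down replicate 4 lay within the Luc range, and the change was 0.26 ± 0.09 (SE, 95% interval 0.04 to 0.48, adjusted p = 0.127). Replicates 1 and 2 gave 0.27 and replicates 3 and 4 gave 0.25. It passed with the replicate sets as a term in the fit (adjusted p = 0.0183) and without Rad21 replicate 4 (0.33, adjusted p = 0.0467). Probe sets 1437001_at and 1451020_at gave 0.18 (adjusted p = 0.441) and -0.20 (adjusted p = 0.247). The latter passed in replicates 3 and 4 alone (-0.28, adjusted p = 0.0323) and without Luc replicate 1 (-0.28, adjusted p = 0.0389). The dim probe set 1439949_at differed by 0.73 in replicates 1 and 2 alone (adjusted p = 0.00686) but by -0.02 in replicates 3 and 4, a gap between the sets that missed the threshold (interaction adjusted p = 0.0851).

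**Figure D2:**
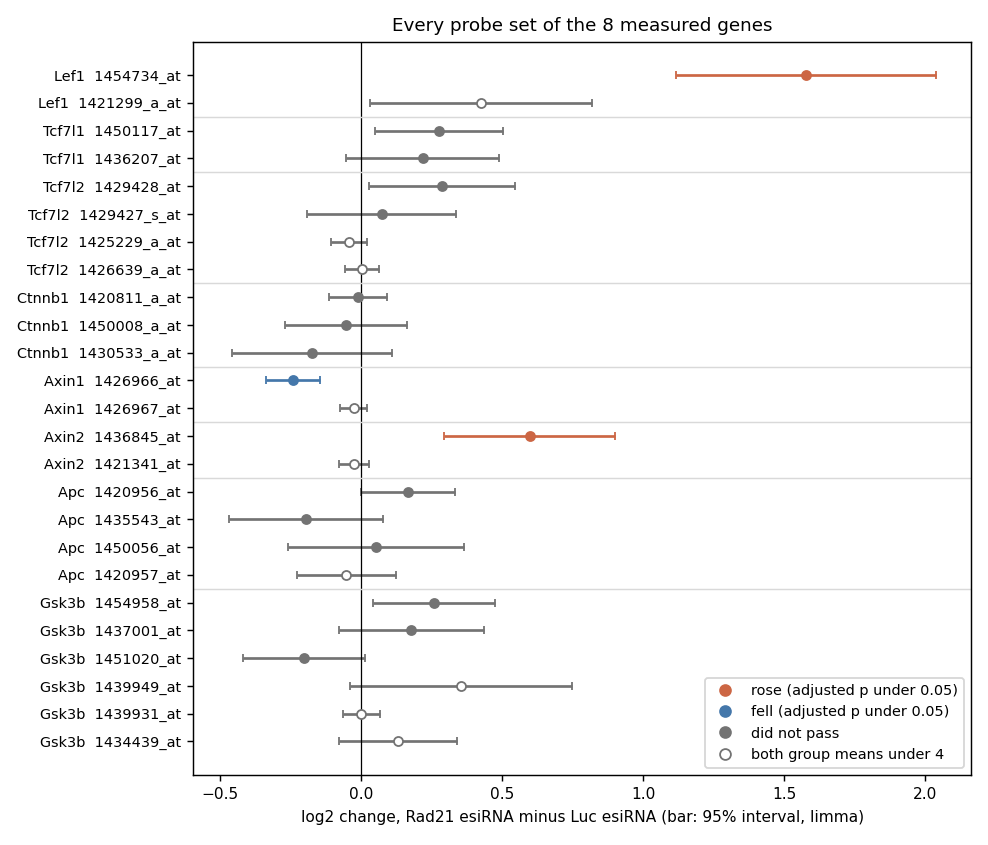
Log2 change (Rad21 esiRNA minus Luc esiRNA, 4 arrays per group) of all 25 probe sets of the 8 genes, with 95% intervals from limma; open points have both group means under 4. The filled Lef1 (1.58) and Axin2 (0.60) points lie to the right and Axin1 (-0.24) to the left, and the 22 others, from -0.20 to 0.42, did not pass, although the intervals, which are not adjusted for multiple testing, lie clear of 0 for 4 of them.

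The probe sets of a gene were compared in the same way, by the within-array difference between the brightest and each other one. Of 17 such pairs 0 passed after adjustment. The smallest possible p was reached by 5 pairs, 1 each of Lef1, Tcf7l2, Axin1, Axin2 and Apc (exact permutation p = 0.0286, adjusted p = 0.0971). With 5 of 17 pairs at that smallest p, no pair could pass after adjustment. The count of 0 therefore does not show that the probe sets of a gene changed alike. The difference of the changes was 1.15 for Lef1, 0.62 for Axin2 and -0.22 for Axin1, each against a probe set with both means under 4. For Apc it was 0.36 between 1420956_at and 1435543_at, both of them above that level. Across replicate sets, 0 of the 25 probe sets passed the interaction test in limma, which called 0.777% of all probe sets, and 5 had an unadjusted p under 0.05.

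The genes whose values over the 8 arrays were most like those of Lef1 were sought among 10161 genes with means of at least 4 in both groups, by the root mean square difference after each gene was set to its own Luc mean. They were Tagln (0.105, log2 units), which encodes the actin-binding protein transgelin, Vgll3 (0.144), which encodes a cofactor of Tead factors, and Fam102b (0.144). Their log2 changes were 1.54, 1.57 and 1.54, beside 1.58 for Lef1. All 3 had lower Luc values in replicates 3 and 4 than in replicates 1 and 2, as Lef1 did. Likeness over arrays of both groups rests mostly on a rise of similar size.

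**Figure D3:**
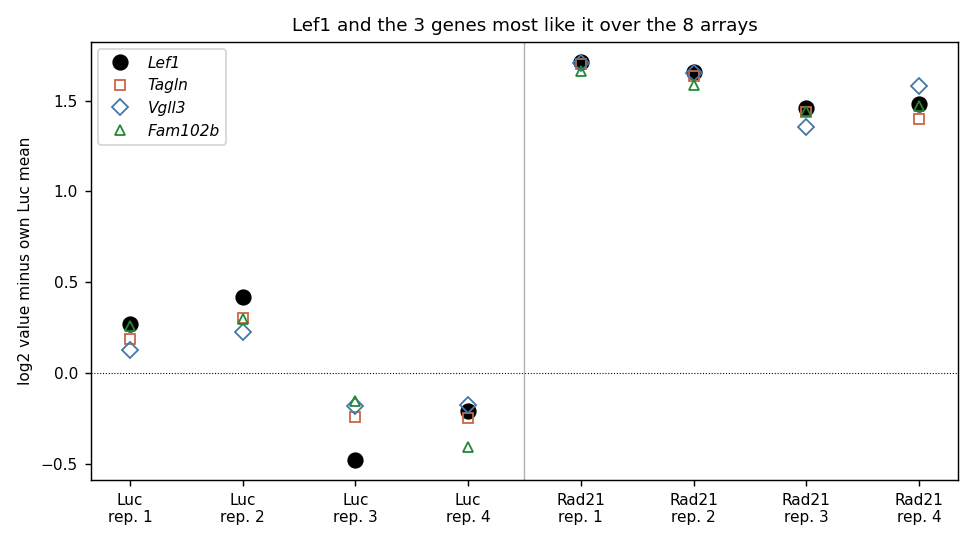
Log2 value minus the gene's own Luc mean, on each of the 8 arrays, for Lef1 and the 3 genes most like it. All 4 genes lie more than 1 above the Luc mean in every knock-down array, and Luc replicates 3 and 4 lie below it.

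Further components of the destruction complex and its regulators changed in both directions. Of 33 listed genes 32 were measured, and 6 rose, 5 fell and 21 did not pass (34.4% called, beside 22.6% of all genes), with a median change of 0.01. A mean of at least 4 was reached by 26 of the 32, so the share over all genes is not matched for brightness. Dact1, an antagonist that binds Dishevelled, fell by 0.84 ± 0.13 (SE, adjusted p = 0.00388), from a mean of 7.83 to 6.996. Csnk1e, a casein kinase that acts with Dishevelled, fell by 0.69 ± 0.09. Frat2, which binds Gsk3, fell by 0.57 ± 0.10, and Csnk1a1, the kinase that primes β-catenin for Gsk3, fell by 0.26 ± 0.04. Averaged over all probe sets of the gene, Csnk1a1 changed by -0.12 and lost the call (adjusted p = 0.116), while Csnk1e fell by 0.40. The rises were small and mostly less stable. Fbxw11, a receptor subunit of the ubiquitin ligase for β-catenin, rose by 0.22 ± 0.04 and was called whichever array was left out. Csnk1g1 rose by 0.52 ± 0.14 (adjusted p = 0.0457, and 0.35 over the mean of its probe sets), but of 8 fits that each left out an array it was called in 1, that without Rad21 replicate 3 (adjusted p up to 0.118 in the others). Rnf146 (0.23), a ubiquitin ligase for Axin, rose, with a call only without Luc replicate 2 or Rad21 replicate 3 (otherwise up to 0.0818), and the mean of all its probe sets changed by 0.13 without a call (adjusted p = 0.0956). Rbx1 (0.23, both means under 4) rose, with a call only without Luc replicate 3 or Rad21 replicate 4 (otherwise up to 0.0742). The count of rises in this list was 2 to 5 when an array was left out (2 without Luc replicate 4), and 2 and 1 within the replicate sets alone.

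Nuclear partners of Tcf/Lef and β-catenin were likewise mixed, with 5 of 24 rising, 5 falling and 14 not passing (41.7% called, beside 22.6% of all genes, median change -0.03). Of the 24, 21 had a mean of at least 4, and the share over all genes is again not matched for brightness. In the Groucho/Tle family, Tle5 (also called Aes) fell by 0.86 ± 0.15 (SE, adjusted p = 0.00850) and Tle4 by 0.58 ± 0.07, whereas Tle1, Tle2, Tle3 and Tle6, with changes from -0.05 to 0.27, did not pass. Ldb1, an adaptor of the Wnt enhanceosome, fell by 0.75 ± 0.06, from 8.90 to 8.15. Pygo2, a reader that acts with Bcl9 and β-catenin, fell by 0.24 ± 0.06, with a call only without Luc replicate 3 or Rad21 replicate 1 when an array was left out (otherwise adjusted p up to 0.0748). The acetyltransferase gene Crebbp (0.37 ± 0.07), the remodeller gene Chd8 (0.23 ± 0.04) and the co-repressor gene Ctbp2 (0.21 ± 0.04) rose. Averaged over all probe sets of the gene, Crebbp (0.19, adjusted p = 0.297) and Ctbp2 (0.14, adjusted p = 0.0586) lost the call, and Chd8 changed by 0.39. A rise was also called for the kinase gene Hipk2 (0.39 ± 0.08), whose call was lost without Luc replicate 1 (0.37, adjusted p = 0.0561) or Luc replicate 2 (0.37, adjusted p = 0.0549) and whose mean over all its probe sets changed by 0.02. The number of rises was 3 to 5 when an array was left out, and 3 and 2 within the replicate sets.

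Genes known as Wnt/β-catenin targets were called about as often as genes in general. Besides Lef1 and Axin2, 24 targets were measured, and 4 rose, 1 fell and 19 did not pass (20.8% called, beside 22.6% of all genes, median change 0.04), while 14 had a mean of at least 4. Fosl1 rose by 1.49 ± 0.19 (SE, adjusted p = 0.00174) and Jun by 1.45 ± 0.11, both AP-1 subunits. Tnfrsf19, a receptor gene, rose by 1.10 ± 0.15, but the call rested on 1 of its 3 probe sets, and their mean changed by 0.19 (adjusted p = 0.213). The trophectoderm factor gene Cdx2 rose by 1.10 ± 0.15 from a Luc mean of 3.57, near the low plateau. Myc fell by 0.94 ± 0.07, from 9.42 to 8.48. Averaged over their probe sets, Fosl1 changed by 0.80 and Cdx2 by 0.55, with calls. Several of these are also induced by other pathways. Ccnd1, often used as a Wnt readout, did not pass (-0.0060, adjusted p = 0.979). Sp5, another readout, outside the naming rule and chosen after its values were seen, measured 7.90, 8.26, 6.48 and 7.45 in Luc arrays and 8.34 to 8.52 in knock-down arrays, without overlap but short of the threshold (0.90 ± 0.35, adjusted p = 0.160).

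A list of 5 pluripotency genes known to be repressed by Tcf7l1 in ESCs was also examined. It was chosen with earlier results of these data known, and the study had already reported lower Nanog and Esrrb from these arrays. The share called is therefore a description and not an independent test. All 5 were called down (100%, beside 12.6% of all genes called down, and 4 to 5 of them when an array was left out), with a median change of -0.89. The pluripotency factor genes Tfcp2l1 (-1.61 ± 0.14, SE), Esrrb (-1.43 ± 0.12), Klf2 (-0.89 ± 0.07) and Nanog (-0.83 ± 0.04) were called whichever array was left out, Tfcp2l1 with -0.53 over the mean of its probe sets. The orphan receptor gene Nr5a2 fell by 0.23 ± 0.06 with overlapping groups (adjusted p = 0.0498) and was called in 1 of 8 such fits. The same genes are regulated by many other factors, and they fell together with the ESC markers given above, of which Nanog is one. The part of those markers in this result was not tested.

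Partners of β-catenin at cell junctions were called in 5 of 8 cases (62.5%, beside 22.6% of all genes, of which 10.1% rose and 12.6% fell), with 4 rising, 1 falling and a median change of 0.24. Of these 8 genes 7 had a mean of at least 4, so here too the share over all genes is not matched for brightness. The N-cadherin gene Cdh2 rose by 0.96 ± 0.10 (SE, adjusted p = 0.000827), by 0.69 in replicates 1 and 2 and 1.23 in replicates 3 and 4, a difference between the sets that passed (interaction adjusted p = 0.0383). The E-cadherin gene Cdh1 rose by 0.41 ± 0.04, from 13.97 to 14.38, and the vinculin gene Vcl rose by 0.46 ± 0.07 (0.25 over the mean of its probe sets). The P-cadherin gene Cdh3 rose by 0.66 ± 0.17 (0.31 over the mean of its probe sets), but when an array was left out it was called only without Luc replicate 1 or Rad21 replicate 3 (otherwise adjusted p up to 0.112). The α-catenin gene Ctnna1 fell by 0.14 ± 0.03 at a probe set whose suffix (_x_at) marks possible binding to several transcripts, while the mean of all its probe sets changed by 0.09. Its relative Jup, which encodes γ-catenin, did not pass (-0.09).

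**Figure D4:**
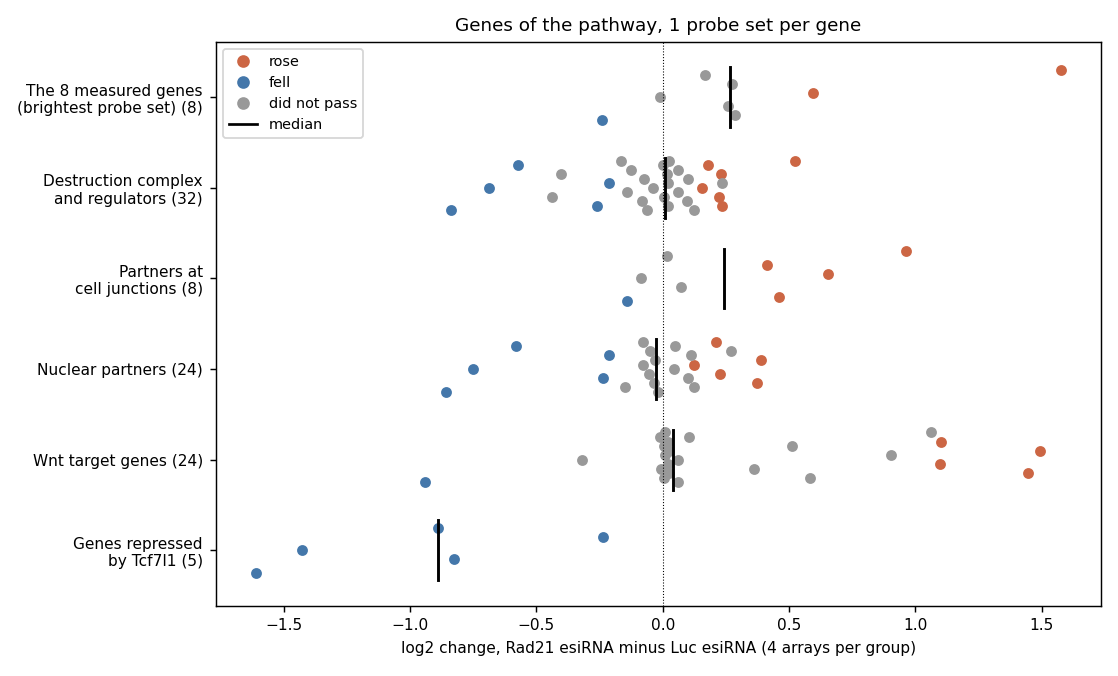
Log2 change (Rad21 esiRNA minus Luc esiRNA) of 1 probe set per gene for the 8 measured genes and the 5 pathway lists, with the number of genes in brackets and a vertical bar at each median. The medians lie at 0.27 for the 8 genes, between -0.03 and 0.24 for 4 lists, and at -0.89 for the genes repressed by Tcf7l1, of which all 5 fell.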

How the data were processed

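Total RNA was hybridised to Affymetrix mouse arrays, 4 per group. The deposited values are log2 signals made by the authors with GCRMA, a probe-level background correction, normalization and summary that accounts for GC content, in Partek 6.4. GCRMA gives arrays a common distribution, so a shift of the whole transcriptome would not be seen. It also compresses dim probe sets, and 57.9% of probe sets had a mean under 4. The scanner files were not used here.

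Groups came from the labels. After 64 controls were removed, 45037 probe sets were fitted with limma 3.58.1 in R 4.3.3, Rad21 minus Luc, two-sided, without a filter or block. Benjamini-Hochberg adjustment ran over all of them, and an adjusted p under 0.05 was a call. A single symbol was given for 34945 probe sets, several for 932 and none here for 9160, and no gene was named from several. Promoters came from RefSeq (GRCm38.p6). No window for Axin1 or Apc was used.

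The members and lists were chosen with earlier results of these data known. Named genes are the members, Rad21, up to 4 called genes per list and direction by size, and the 3 genes most like a called member that changed by at least 1 on the log2 scale. Sp5, Ccnd1, Jup, Nr5a2, Thy1, Col3a1, Utf1, Sox7, Msx1, Skp1 and the Tle genes that did not pass are named outside this rule. Some listed genes are not reported here. Of 7 planned pairs of family members 4 were compared, since Tcf7 was not measured. The labels do not state whether equal replicate numbers pair the arrays, and correlations of deviations were low (0.0215 to 0.133). Taken over mostly dim probe sets, they cannot exclude pairing, and the block is given only as an alternative. The model and the permutation test were tested on simulated data. Alternatives were the methods' analysis of variance, another variance prior, blocks, single replicate sets, quantile normalization, a mean of at least 4, centring on probe sets of at least 8, averaging the probe sets of each gene, and leaving out each array. Plots were drawn with matplotlib 3.10.9 (Python 3.11.15).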

Additional observations from a re-analysis of the deposited data

Results flagged for a closer look

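In 116 groups of 4 arrays (the members, Rad21 and the named list genes), 3 held an array whose gap to the nearest other, divided by the whole range, exceeded Dixon's 95% limit, which chance passes in a share of about 0.05 of groups. At the dim Apc probe set 1420957_at, Luc replicate 1 was at 3.81 with the others at 3.51 to 3.54, and Rad21 replicate 1 was at 3.42 with the others at 3.58 to 3.60. Without Luc replicate 1 its change went from -0.05 to 0.02. For Cdh1 (1448261_at), Luc replicate 2 was at 13.87 with the others at 14.00 to 14.01. Between the replicate sets, the change of Cdh2 (1418815_at) was larger in replicates 3 and 4 by 0.54 on the log2 scale (interaction adjusted p = 0.0383). Among list genes not called in the pooled fit, Msx1 changed by 0.15 in replicates 1 and 2 and by 1.97 in replicates 3 and 4 (interaction adjusted p = 0.0295). Skp1 changed by -0.76 and -0.12 in these sets (interaction adjusted p = 0.0433).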

How the results depend on the processing

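The brightest probe sets of Lef1 and Axin1 kept their direction in every alternative run, and both kept their call in each fit that left out an array. The number of member probe sets called was 3, but 5 with the replicate sets blocked, 5 in replicates 1 and 2 alone and 5 under quantile normalization, and 2 to 4 when an array was left out. With the replicate sets blocked, calls over all probe sets also became more frequent in both directions. Member calls added by that block therefore came with a general rise in calls. Over all probe sets, calls were fewer in replicates 1 and 2 alone and nearly unchanged under quantile normalization. Member genes called up numbered 2, against 1 by the methods' analysis of variance, 4 with the replicate sets blocked (adding Tcf7l1, adjusted p = 0.0208, and Gsk3b, adjusted p = 0.0183), and 1 to 3 when an array was left out (1 without Luc replicate 4 or Rad21 replicate 2, and 3 without Rad21 replicate 4, when Tcf7l1 and Gsk3b were called and Axin2 was not). Member genes called down numbered 1, against 0 in replicates 3 and 4 alone and 1 in each fit that left out an array. Over all probe sets 3784 fell, against 2402 in replicates 3 and 4 alone and 3011 to 3475 when an array was left out, and 6697 were called in all, against 5395 to 6210. With the replicate number as a block, for which the check did not show pairing (1 of 4 Luc arrays correlated best with its own number), 6224 probe sets and 4 member probe sets were called, the added one being Apc 1420956_at (adjusted p = 0.0340), and Ctbp2 (adjusted p = 0.0541), Fbxw11 (0.0558) and Csnk1g1 (0.0905) lost their calls.

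Directions turned only for probe sets that were not called, apart from Ctnna1, whose probe sets averaged 0.088. In replicates 1 and 2 alone Ctnnb1 1420811_a_at was at 0.0082, Gsk3b 1439931_at at -0.0077, Tcf7l2 1426639_a_at at -0.020 and Tcf7l2 1429427_s_at at -0.096. In replicates 3 and 4 alone Apc 1420957_at was at 0.064, Apc 1450056_at at -0.045 and Gsk3b 1439949_at at -0.025. Under quantile normalization Apc 1450056_at was at -0.012, Gsk3b 1439931_at at -0.031 and Tcf7l2 1426639_a_at at -0.0046. Centred on bright probe sets, Axin1 1426967_at was at 0.0030, Axin2 1421341_at at 0.0040 and Ctnnb1 1420811_a_at at 0.017, and the mean of all Apc probe sets was -0.0081. Without single arrays the ranges were -0.082 to 0.018 for Apc 1420957_at, -0.050 to 0.12 for Apc 1450056_at, -0.038 to 0.016 for Ctnnb1 1420811_a_at, -0.11 to 0.0069 for Ctnnb1 1450008_a_at, -0.020 to 0.015 for Gsk3b 1439931_at, -0.015 to 0.014 for Tcf7l2 1426639_a_at and -0.022 to 0.17 for Tcf7l2 1429427_s_at. The causes were not tested. With 4 arrays per group, and 9 of the 25 probe sets under 4 in both groups, small changes and changes of dim probe sets are not settled by these data.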
